A study of Mus musculus with 9 samples.

Results

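Genes of interleukin 6 (IL-6) family signalling and of its feedback inhibitors were followed in mouse lung after silica. The set holds 10 genes, taken by symbol from a table of 55359 genes: the ligands Il6, Osm and Lif, the receptor genes Il6ra, Osmr and Il6st, the transcription factor gene Stat3, and the SOCS family genes Socs1, Socs3 and Cish. The animals were male C57BL/6J mice aged 6 to 8 weeks, and lung was collected 28 days after an instillation into the trachea and profiled by poly(A) RNA sequencing. The Silica + ATL-III mice were instilled with 5 mg of silica (crystalline dust behind the lung disease silicosis) and given 30 mg/kg per day of atractylenolide III (ATL-III), a sesquiterpene lactone from Atractylodes plants, injected into the abdomen. The Silica mice received 5 mg of silica alone, and the Control mice received saline. Each group gave 3 libraries, 9 in all. The design has no ATL-III group without silica and names no abdominal injection for the other groups, so an effect of ATL-III on the silica response and an effect of the drug or of injection on any lung cannot be told apart. Whether a library stands for 1 animal is not stated, and the p-values therefore describe the spread among libraries, part of which may be technical.

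Cytokines of this family bind a receptor chain of their own and then the shared signalling chain gp130, the product of Il6st. The JAK kinases bound to these chains phosphorylate STAT3, which enters the nucleus and switches on target genes. Among those targets is Socs3, whose protein binds gp130 and the JAKs and ends the signal, while CIS, the product of Cish, is best known for restraining STAT5. In the lung, IL-6 comes from macrophages, fibroblasts, epithelium and other cells, and oncostatin M, the product of Osm, comes mainly from neutrophils, macrophages and T cells.

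Library totals were even, at 16047175 to 17792481 counts, and 18268 genes with enough counts entered the test, all 10 members included. Levels are deposited FPKM (counts divided by exonic length and by library total), given as mean ± SD (n = 3). Differences between groups are given as log2 fold change ± SE (edgeR, quasi-likelihood), and genes are termed called when the p, adjusted by Benjamini-Hochberg over all tested genes, lay under 0.05. The epithelial markers that define lung tissue (Sftpc, Sftpb, Sftpa1, Ager, Hopx, Scgb1a1 and Foxj1) had counts in all 9 libraries. Their summed level was lowest in Silica 1, at 66350 FPKM, against 94730 to 121300 FPKM in the other libraries. Of 12 neutrophil markers, 12 were called higher in Silica + ATL-III than in Silica, and the summed level was 30130 to 45460 FPKM in Silica + ATL-III, against 734 to 4511 FPKM in Silica and 558 to 3893 FPKM in Control. Of 8 macrophage markers, 6 were called higher in Silica than in Control and 3 lower in Silica + ATL-III than in Silica. Other lists moved too: in Silica + ATL-III against Silica, 4 of 4 B cell markers were lower and 3 of 5 endothelial markers higher, and in Silica against Control 3 of 4 heart muscle and 3 of 3 adipose markers were lower. In whole lung, fewer cells of a type and less RNA per cell cannot be told apart.

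When ATL-III was given with silica, Osm, Il6ra, Stat3 and Socs3 were higher than after silica alone, and Il6 was lower. These 5 of 10 members were called, beside 19.4% of all tested genes (10.4% higher and 8.94% lower). The members were chosen with earlier results of these data known, so their shares and medians are descriptions only. After silica alone Il6, Socs1 and Socs3 were higher and Il6ra lower than in Control, 4 of 10 members beside 14.3% of all tested genes (8.45% higher and 5.84% lower). In Silica + ATL-III against Control, Osm, Il6ra, Osmr, Stat3 and Socs3 were called, all higher, 5 of 10 members beside 14.5% of all tested genes (8.81% higher and 5.68% lower). The median log2 fold change of the members was 0.34, 0.20 and 0.51 in these comparisons, in the same order, against 0.003, -0.001 and 0.009 over all tested genes. FPKM of the groups did not overlap for 7 members between Silica + ATL-III and Silica, 5 between Silica and Control and 5 between Silica + ATL-III and Control, beside 33.7%, 40.6% and 40.5% of all tested genes. The comparisons share libraries and are not independent of each other. Of all called genes, 59.2% were higher in Silica than in Control and 60.8% higher in Silica + ATL-III than in Control, against 33.2% and 33.9% when scaled by library totals alone, which moved the median gene by -0.12 and -0.15. No called member changed direction under that scaling. Between Silica and Control 2 members were called without Silica 1 and 1 without Control 3, and Il6 was called whichever library was left out.

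**Figure D1:**
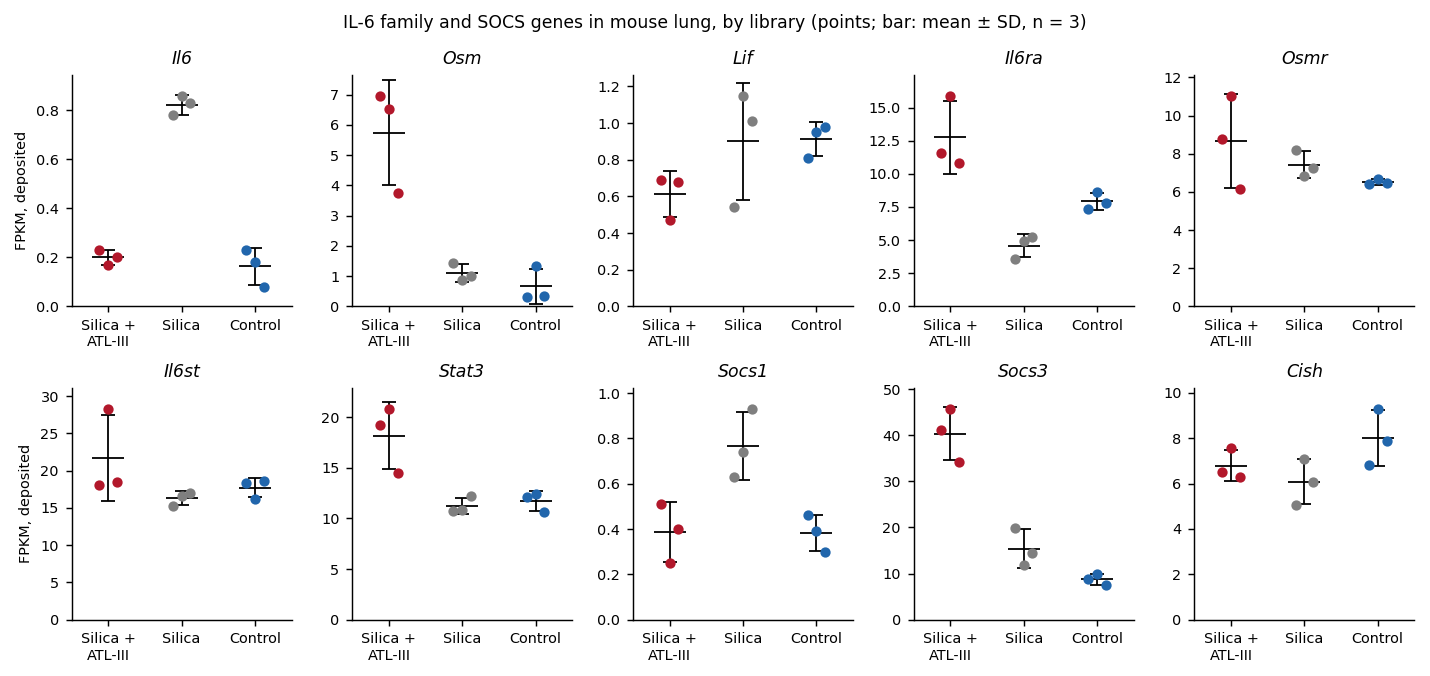
Deposited FPKM (vertical axes, starting at 0) of the 10 genes in each library of Silica + ATL-III, Silica and Control lung; points are libraries and bars are mean ± SD (n = 3). Il6 stood at 0.78 to 0.86 FPKM in Silica and at most 0.23 FPKM in the other groups, while Socs3 stood at 34.20 FPKM or more in Silica + ATL-III and at most 19.96 FPKM elsewhere.

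Among the ligands, Il6 (ENSMUSG00000025746, chromosome 5), the founding cytokine of the family, was scarce in every group. Its counts were 9, 7 and 8 in Silica + ATL-III, 33, 35 and 36 in Silica, and 9, 7 and 3 in Control. These counts correspond to 0.200 ± 0.030 FPKM in Silica + ATL-III, 0.823 ± 0.0404 FPKM in Silica and 0.163 ± 0.0764 FPKM in Control. All 3 Silica libraries lay above all others, and the libraries of Silica + ATL-III and Control overlapped. Il6 rose in Silica relative to Control by 2.46 ± 0.40 on the log2 scale (edgeR adjusted p = 0.0030) and was lower in Silica + ATL-III than in Silica (-2.00 ± 0.38, edgeR adjusted p = 0.0039). Against Control, the log2 fold change in Silica + ATL-III was 0.45 ± 0.45 (edgeR adjusted p = 0.55). The calls of Il6 held whichever single library was left out. Il6 passed the count filter through its Silica libraries alone, since its counts elsewhere lay under the minimum of 10. The fits with 1 library left out kept the filter of all 9 libraries, so they did not test its entry into the analysis.

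Osm (ENSMUSG00000058755, chromosome 11), which encodes oncostatin M, moved the other way under ATL-III. Its level was 6.97, 6.52 and 3.76 FPKM in Silica + ATL-III, against 1.44, 0.86 and 0.99 FPKM in Silica and 0.32, 1.32 and 0.35 FPKM in Control. The Silica + ATL-III libraries lay above all 6 others, and Silica and Control overlapped through Control 2. Osm rose in Silica + ATL-III by 2.40 ± 0.42 relative to Silica (edgeR adjusted p = 0.0023) and by 3.26 ± 0.45 relative to Control (edgeR adjusted p = 0.00046). Between Silica and Control it was not called (0.86 ± 0.47, edgeR adjusted p = 0.23), but without Control 2 the log2 fold change was 1.81 and the edgeR adjusted p was 0.027. Control 2 also had the highest summed neutrophil markers of its group, at 3893 FPKM against 586 and 558 FPKM in the other Control libraries. Silica 2 had the highest neutrophil sum of its group (4511 FPKM, against 1936 and 734) and the lowest Osm level.

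Lif (ENSMUSG00000034394, chromosome 11), which encodes leukaemia inhibitory factor, showed no called difference. Its level was 0.69, 0.47 and 0.68 FPKM in Silica + ATL-III, 0.54, 1.15 and 1.01 FPKM in Silica, and 0.81, 0.95 and 0.98 FPKM in Control. Silica 1 was low in its group, and the Silica + ATL-III libraries all lay below the Control libraries. The log2 fold changes were -0.51 ± 0.28 between Silica + ATL-III and Silica, -0.42 ± 0.28 between Silica + ATL-III and Control, and 0.09 ± 0.28 between Silica and Control (edgeR adjusted p = 0.223, 0.362 and 0.845). Per length, Osm had the highest mean of the 3 ligands in Silica + ATL-III (5.75 ± 1.74 FPKM), and Lif had it in Control (0.913 ± 0.0907 FPKM), where it overlapped Osm.

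Among the promoters of the members, those of Il6 and Socs3 each held 1 of 2 motifs searched. Short motifs were searched in the 250 bases before the RefSeq start (GRCm38.p6) of the 9 members that matched by symbol, on both strands. The STAT motif TTCNNNGAA was found only before Socs3, 154 bases before the start, and 7.02% of 32851 promoter entries of that length hold it. The kappaB motif bound by NF-kappaB, searched as GGGA, any base and TTTCC, was found only before Il6, 44 bases before the start, and 0.356% of the entries hold it. The other promoters searched held neither motif. They include those of Il6ra and Stat3, which were higher in Silica + ATL-III than in Silica, as Socs3 was. Any part of the motifs in the expression changes was not tested. The sequences show where the matched letters, in capitals, lie relative to the start at the right-hand end. A match is a description of letters and no evidence of binding. Il6 lies at chr5:30012864-30013113 (plus strand) and Socs3 at chr11:117969367-117969616 (minus strand).
Il6: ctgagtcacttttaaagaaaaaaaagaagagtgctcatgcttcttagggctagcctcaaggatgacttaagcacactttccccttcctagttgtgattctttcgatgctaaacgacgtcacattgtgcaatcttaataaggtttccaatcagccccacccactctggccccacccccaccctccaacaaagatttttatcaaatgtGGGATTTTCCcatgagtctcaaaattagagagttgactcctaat
Socs3: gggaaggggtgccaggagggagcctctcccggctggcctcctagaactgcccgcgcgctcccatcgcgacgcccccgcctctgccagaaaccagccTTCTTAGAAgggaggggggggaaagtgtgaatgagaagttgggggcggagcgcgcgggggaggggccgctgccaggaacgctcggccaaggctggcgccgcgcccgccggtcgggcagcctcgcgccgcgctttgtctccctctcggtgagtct

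Of the receptor genes, Il6ra (ENSMUSG00000027947, chromosome 3), which encodes the chain that binds IL-6, was lower after silica alone and higher with ATL-III. Its level was 11.55, 15.90 and 10.82 FPKM in Silica + ATL-III, 3.57, 4.91 and 5.25 FPKM in Silica, and 7.33, 8.63 and 7.83 FPKM in Control. The groups did not overlap, with Control between Silica + ATL-III and Silica. Il6ra rose in Silica + ATL-III by 1.51 ± 0.16 relative to Silica (edgeR adjusted p = 0.00015) and by 0.84 ± 0.16 relative to Control (edgeR adjusted p = 0.0036). It was lower in Silica than in Control (-0.67 ± 0.16, edgeR adjusted p = 0.018), a call that was lost without Silica 1, Control 2 or Control 3 (edgeR adjusted p = 0.074, 0.059 and 0.053). GENCODE M21 places 242 exonic bases of an antisense gene over Il6ra, and the sources used here do not give the strand setting of the counting.

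Il6st (ENSMUSG00000021756, chromosome 13), the gp130 gene, was steadier. Its level was 18.13, 28.30 and 18.54 FPKM in Silica + ATL-III, 15.29, 16.65 and 17.05 FPKM in Silica, and 18.32, 16.24 and 18.67 FPKM in Control. Silica + ATL-III 2 stood above every other library. The log2 fold change between Silica + ATL-III and Silica was 0.43 ± 0.16 (edgeR adjusted p = 0.070). That value dropped to 0.19 without Silica + ATL-III 2 and was called without Silica + ATL-III 1 or 3 (edgeR adjusted p = 0.041 and 0.042). Il6st was not called between Silica + ATL-III and Control (0.44 ± 0.16, edgeR adjusted p = 0.083; 0.18 without Silica + ATL-III 2) or between Silica and Control (0.004 ± 0.155, edgeR adjusted p = 0.99). The first of these was called without Silica + ATL-III 1 (0.55, edgeR adjusted p = 0.046) and with no filter (edgeR adjusted p = 0.021). Set against gp130 within each library, the Il6ra level was 0.562 to 0.637 of the Il6st level in Silica + ATL-III, 0.234 to 0.308 in Silica and 0.400 to 0.531 in Control, as ratios of FPKM. These ratios do not depend on how libraries were scaled, and the groups did not overlap.

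Osmr (ENSMUSG00000022146, chromosome 15), the oncostatin M receptor gene, was close to its call threshold. Its level was 8.79, 11.05 and 6.17 FPKM in Silica + ATL-III, 8.19, 6.84 and 7.27 FPKM in Silica, and 6.41, 6.70 and 6.47 FPKM in Control. Silica + ATL-III 3 lay below every other library, so Silica + ATL-III overlapped both other groups, whereas Silica lay above Control throughout. Osmr was called higher in Silica + ATL-III than in Control (0.56 ± 0.17, edgeR adjusted p = 0.047). The call ended without Silica + ATL-III 1, Silica + ATL-III 2 or any Control library (edgeR adjusted p up to 0.21) and under 7 further settings, RLE size factors among them (edgeR adjusted p = 0.052). Neither Silica + ATL-III against Silica (0.24 ± 0.17, edgeR adjusted p = 0.35) nor Silica against Control (0.32 ± 0.17, edgeR adjusted p = 0.22) was called, although the first of these was called without Silica + ATL-III 3 (0.43, edgeR adjusted p = 0.042).

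Stat3 (ENSMUSG00000004040, chromosome 11), which encodes the main transcription factor of the pathway, was higher with ATL-III. Its level was 19.20, 20.81 and 14.44 FPKM in Silica + ATL-III, 10.72, 10.82 and 12.18 FPKM in Silica, and 12.12, 12.45 and 10.63 FPKM in Control. All Silica + ATL-III libraries lay above all others, with replicate 3 the lowest of them, and Silica and Control overlapped. Stat3 rose in Silica + ATL-III by 0.72 ± 0.13 relative to Silica (edgeR adjusted p = 0.0033) and by 0.78 ± 0.13 relative to Control (edgeR adjusted p = 0.0020). Between Silica and Control the log2 fold change was 0.06 ± 0.13 (edgeR adjusted p = 0.78). GENCODE M21 places 72 exonic bases of Stat5a, on the other strand, over Stat3. These are transcripts, and phosphorylation of STAT3, by which the pathway acts on it, was not measured in them.

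**Figure D2:**
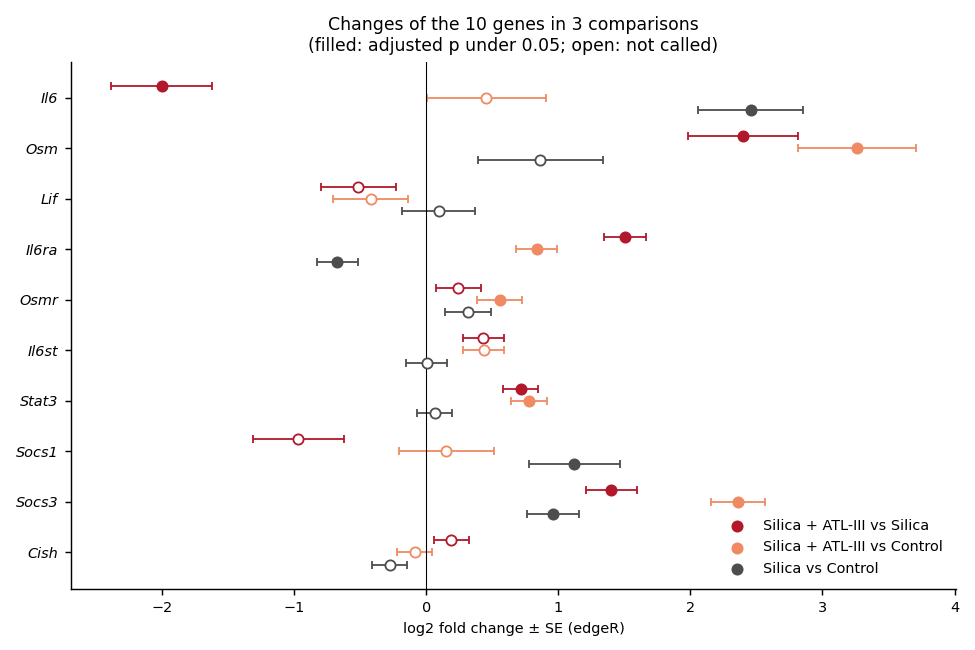
Log2 fold changes ± SE from edgeR (horizontal axis) of the 10 genes in the comparisons of Silica + ATL-III with Silica, of Silica + ATL-III with Control and of Silica with Control; filled points have an adjusted p under 0.05. Il6 lies at -2.00 in Silica + ATL-III against Silica and at 2.46 in Silica against Control, whereas Osm, Stat3 and Socs3 have their called values on the right of 0.

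Of the feedback genes, Socs3 (ENSMUSG00000053113, chromosome 11) differed between all 3 groups. Its level was 41.20, 45.72 and 34.20 FPKM in Silica + ATL-III, 19.96, 11.77 and 14.54 FPKM in Silica, and 8.74, 9.87 and 7.54 FPKM in Control. The groups did not overlap. Socs3 rose in Silica + ATL-III by 1.40 ± 0.19 relative to Silica (edgeR adjusted p = 0.00057) and by 2.36 ± 0.20 relative to Control (edgeR adjusted p = 1.6e-05). In Silica it was higher than in Control by 0.96 ± 0.20 (edgeR adjusted p = 0.010), a call lost without Control 3 (edgeR adjusted p = 0.053). Relative to Stat3 in the same library, Socs3 stood at 2.15 to 2.37 times the Stat3 level in Silica + ATL-III, 1.09 to 1.86 times in Silica and 0.709 to 0.793 times in Control, as ratios of FPKM.

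Socs1 (ENSMUSG00000038037, chromosome 16), an inhibitor of JAK kinases best known for restraining interferon signals, had few counts and a pattern like that of Il6. Its counts were 24, 12 and 19 in Silica + ATL-III, 32, 36 and 48 in Silica, and 22, 18 and 14 in Control. All Silica libraries lay above all others, and Silica + ATL-III and Control overlapped. Socs1 was called higher in Silica than in Control (1.12 ± 0.34, edgeR adjusted p = 0.048), but the call was lost without any single library of either group (edgeR adjusted p up to 0.16). Between Silica + ATL-III and Silica the log2 fold change was -0.97 ± 0.34 (edgeR adjusted p = 0.067), and limma on log2(FPKM + 0.5) called it lower (-0.52, adjusted p = 0.038). Between Silica + ATL-III and Control it was 0.15 ± 0.36 (edgeR adjusted p = 0.83).

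Cish (ENSMUSG00000032578, chromosome 9) showed no called difference. Its level was 6.53, 7.55 and 6.27 FPKM in Silica + ATL-III, 5.07, 7.07 and 6.09 FPKM in Silica, and 6.83, 9.29 and 7.87 FPKM in Control. Control 2 was the highest library, and all 3 groups overlapped. The log2 fold changes were 0.19 ± 0.13 between Silica + ATL-III and Silica, -0.09 ± 0.13 between Silica + ATL-III and Control, and -0.28 ± 0.13 between Silica and Control (edgeR adjusted p = 0.345, 0.718 and 0.173). Exons of an antisense gene and of a pseudogene on the other strand cover 479 and 261 bases of Cish in GENCODE M21.

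By level per length, the order of the members differed between groups. In Silica + ATL-III, Socs3 (40.4 ± 5.80 FPKM) stood first, followed by Il6st (21.7 ± 5.76), Stat3 (18.2 ± 3.31), Il6ra (12.8 ± 2.75) and Osmr (8.67 ± 2.44). The libraries of Socs3 lay above those of Il6st, while every pair of neighbours in the order Il6st, Stat3, Il6ra, Osmr, Cish and Osm overlapped. Lif and Socs1 overlapped below them, and Il6 came last without overlap. In Silica, Il6st (16.3 ± 0.923 FPKM) and Socs3 (15.4 ± 4.17) overlapped at the top, and Osm, Lif, Il6 and Socs1 overlapped at the bottom. Socs3 also overlapped Stat3 there. Osmr, Cish and Il6ra followed in that order in Silica, each overlapping the next, and lay below Stat3 (11.2 ± 0.816 FPKM). In Control, Il6st (17.7 ± 1.31 FPKM) stood first without overlap, ahead of Stat3 (11.7 ± 0.970), which lay above Socs3 (8.72 ± 1.17). Socs3, Cish and Il6ra overlapped in Control, and all their libraries lay above those of Osmr (6.53 ± 0.153 FPKM).

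The 4 members called higher in Silica + ATL-III than in Silica stood beside higher neutrophil markers in these libraries. S100a8 and S100a9 made up 82.8% to 94.6% of the neutrophil sum in each library. Silica + ATL-III 3 had the lowest Osm, Il6ra, Stat3 and Socs3 levels of its group and its highest neutrophil sum (45460 FPKM, against 30330 and 30130). Marker by marker, that library was the highest of its group for 5 of 12 (S100a8, S100a9, Mmp9, Ly6g and Csf3r) and the lowest for 4 (Mmp8, Ngp, Ltf and Il1r2). Silica + ATL-III 2 had the lowest sum of the group but was the highest for 6 of 12 markers and the lowest for 3. It also had the group's highest Il6ra, Stat3 and Socs3 levels (15.90, 20.81 and 45.72 FPKM). Silica 2 was the highest of its group for 11 of 12 neutrophil markers and had its lowest Osm and Socs3 levels, 0.86 and 11.77 FPKM. Its Il6ra and Stat3 levels, 4.91 and 10.82 FPKM, lay between those of the other Silica libraries. Control 2 was the highest of its group for 9 of 12 neutrophil markers and for Osm, Il6ra, Stat3 and Socs3. The summed monocyte markers (Ly6c2, Ccr2 and F13a1) also differed, at 66.3 to 128 FPKM in Silica + ATL-III, against 22.6 to 36.6 FPKM in Silica and 20.0 to 23.5 FPKM in Control. The part of these cell markers in the member changes was not tested. Il6 and Socs1, higher in Silica, stood beside summed macrophage markers of 145 to 186 FPKM in Silica + ATL-III, 178 to 255 FPKM in Silica and 92.9 to 104 FPKM in Control. In Silica + ATL-III against Control, which overlapped for Il6 and Socs1, 5 of the 8 macrophage markers were called higher. The summed fibroblast markers were 74.2 to 104 FPKM in Silica + ATL-III, 140 to 181 FPKM in Silica and 147 to 185 FPKM in Control, with 4 of 6 markers called lower in Silica + ATL-III than in Silica. No marker of the neutrophil, monocyte, macrophage or fibroblast lists was at 0 in any library.

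**Figure D3:**
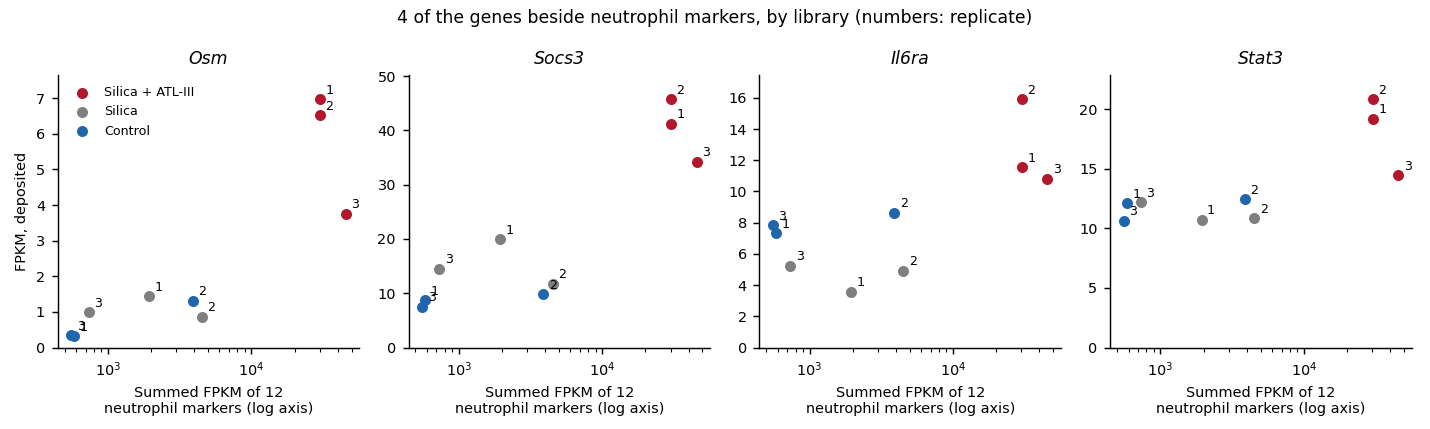
Deposited FPKM of Osm, Socs3, Il6ra and Stat3 (vertical axes) against the summed FPKM of 12 neutrophil markers (horizontal log axis) in each library; numbers are replicates. The Silica + ATL-III libraries lie apart at 30130 FPKM of markers or more, and within that group replicate 3 has the highest sum, which S100a8 and S100a9 dominate, and the lowest level of each gene. Replicate 2 of that group has the lowest sum, is the highest for 6 of the 12 markers, and has the highest Socs3, Il6ra and Stat3 levels.

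A list of 48 other genes of the pathway, chosen with earlier results of these data known, was read in the same fit. It included 20 genes known to respond to STAT3, and 46 of the 48 passed the count filter (Il31 and Il31ra did not). Between Silica + ATL-III and Silica 12 were higher and 4 lower (34.8% called, beside 19.4% of all tested genes), and between Silica + ATL-III and Control 19 were higher and 4 lower (50.0%, beside 14.5%). Between Silica and Control 8 were called, all higher (17.4%, beside 14.3%). Genes known to respond to STAT3 gave 7 of these 8 calls. The other receptors gave 1, and the other ligands, the kinases, STATs and phosphatases, and the other SOCS genes gave 0. The same list gave 9 of the 16 calls between Silica + ATL-III and Silica and 14 of the 23 between Silica + ATL-III and Control. With 1 library left out, the counts over all 46 genes moved most between Silica and Control. They went to 16 without Silica 2 and to 5 without any other library of the comparison. Those between Silica + ATL-III and Silica numbered 10 without Silica + ATL-III 2 or Silica 3. In Silica + ATL-III against Control, 15, 14 and 13 were called without Silica + ATL-III 2, Control 1 and Control 3, taken one at a time.

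Among 7 other ligands tested, Ebi3, whose product pairs with the p28 chain to form IL-27, was higher in Silica + ATL-III (2.22 ± 0.217 FPKM) than in Silica (0.880 ± 0.265 FPKM). The log2 fold change was 1.36 ± 0.38 (edgeR adjusted p = 0.027), a call lost without Silica + ATL-III 2, Silica + ATL-III 3, Silica 1 or Silica 2. Ebi3 was also higher than in Control (0.823 ± 0.457 FPKM; 1.58 ± 0.39, edgeR adjusted p = 0.0165), but not without Control 1 or Control 3. Its counts were few, summing to 127 in Silica + ATL-III, 53 in Silica and 46 in Control. Clcf1, which encodes cardiotrophin-like cytokine factor, stood at 3.13 ± 0.532 FPKM in Silica + ATL-III and 6.56 ± 1.39 FPKM in Control (-0.92 ± 0.18, edgeR adjusted p = 0.0049), and this call held without any single library.

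Of 4 other receptor genes tested, Il11ra1, which encodes the IL-11 receptor chain, ran against Il6ra. Its level was 17.6 ± 1.37 FPKM in Silica + ATL-III, 27.2 ± 5.92 FPKM in Silica and 19.8 ± 0.878 FPKM in Control. It was called higher in Silica than in Control (0.60 ± 0.16, edgeR adjusted p = 0.029) and lower in Silica + ATL-III than in Silica (-0.62 ± 0.16, edgeR adjusted p = 0.018). Both calls were lost without Silica 1 or Silica 3, the first also without any Control library and the second without Silica + ATL-III 1 or 2. Lifr, the receptor that pairs with gp130 for leukaemia inhibitory factor, was lower in Silica + ATL-III (12.2 ± 1.04 FPKM) than in Control (19.0 ± 1.43 FPKM; -0.49 ± 0.11, edgeR adjusted p = 0.0091).

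Among 10 kinases, STATs and phosphatases, 3 were called between Silica + ATL-III and Silica, all higher, beside 10.4% of all tested genes called higher. Jak3, the kinase bound to the common cytokine receptor gamma chain of leukocytes, led them at 13.9 ± 2.55 FPKM in Silica + ATL-III and 5.49 ± 1.75 FPKM in Silica (1.37 ± 0.20, edgeR adjusted p = 0.00069). It was also higher in Silica + ATL-III than in Control, at 8.42 ± 1.16 FPKM in Control (0.87 ± 0.19, edgeR adjusted p = 0.0094). Jak1, the kinase through which gp130 mainly signals, stood at 25.2 FPKM in Silica + ATL-III, 24.8 FPKM in Silica and 25.5 FPKM in Control and was not called; it is named after its values were seen. In Silica against Control, Pias3 had the smallest p of the 10 and was not called (-0.39 ± 0.12, edgeR adjusted p = 0.054). Pias3 was among the 3 called higher in Silica + ATL-III than in Silica (0.41 ± 0.12, edgeR adjusted p = 0.0355). That call was lost without Silica + ATL-III 1, Silica + ATL-III 2, Silica 1 or Silica 3. Of 5 other SOCS genes, Socs5 was the one called, lower in Silica + ATL-III (7.52 ± 0.427 FPKM) than in Silica (10.8 ± 0.384 FPKM; -0.50 ± 0.10, edgeR adjusted p = 0.0054) and than in Control (11.8 ± 0.616 FPKM; -0.50 ± 0.10, edgeR adjusted p = 0.0057). Socs7 had the smallest p of these genes in Silica against Control and was not called (-0.29 ± 0.13, edgeR adjusted p = 0.15).

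The longest list held 20 genes known to respond to STAT3, many of which other factors also induce. It was chosen with earlier results of these data known, and the part of cell types in its changes was not tested. Of the 20 genes, 8 were higher and 1 lower in Silica + ATL-III than in Silica (median log2 fold change 0.59), beside 10.4% higher and 8.94% lower of all tested genes. Relative to Control, 14 were called in Silica + ATL-III (median 1.03) and 7 in Silica (median 0.61), all of them higher, beside 8.81% and 8.45% of all tested genes called higher. Between Silica + ATL-III and Silica, the calls of Pim1, Junb, Il4ra and Il1rn held whichever library was left out. Those of Fos, Cebpd, Mcl1, Lcn2 and Saa3 were lost without at least 1 library. Against Control, the calls of Fos, Cebpd, Mcl1, Bcl2l1 and Batf in Silica + ATL-III were lost in the same way. So were those of Hif1a and Timp1 in Silica. Pim1, a survival kinase gene, followed the order of Socs3, at 20.9 ± 1.83 FPKM in Silica + ATL-III, 11.4 ± 0.595 FPKM in Silica and 5.67 ± 0.541 FPKM in Control. It rose by 0.90 ± 0.11 in Silica + ATL-III relative to Silica, by 2.03 ± 0.11 in Silica + ATL-III relative to Control and by 1.13 ± 0.11 in Silica relative to Control (edgeR adjusted p = 0.00023, 2.4e-06 and 0.00010). Those calls held without any single library.

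Il4ra, the interleukin 4 receptor gene, changed mainly with ATL-III, at 27.7 ± 3.79 FPKM in Silica + ATL-III, 9.24 ± 1.37 FPKM in Silica and 8.00 ± 0.615 FPKM in Control. It rose in Silica + ATL-III relative to Silica by 1.61 ± 0.14 (edgeR adjusted p = 4.8e-05) and was not called between Silica and Control (0.33 ± 0.13, edgeR adjusted p = 0.11). Lcn2, the gene of the iron-sequestering protein lipocalin 2, had the smallest p in Silica against Control, at 290 ± 62.8 FPKM in Silica and 40.6 ± 10.9 FPKM in Control (2.95 ± 0.28, edgeR adjusted p = 0.00010). Il1rn, the gene of the interleukin 1 receptor antagonist, was the one gene of the list called lower in Silica + ATL-III than in Silica. Its level was 8.00 ± 1.44 FPKM in Silica + ATL-III, 19.4 ± 6.36 FPKM in Silica and 2.93 ± 0.896 FPKM in Control. The log2 fold change of Il1rn was -1.27 ± 0.26 between Silica + ATL-III and Silica (edgeR adjusted p = 0.0053), and it stayed higher than Control in Silica + ATL-III (1.60 ± 0.27, edgeR adjusted p = 0.0019).

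**Figure D4:**
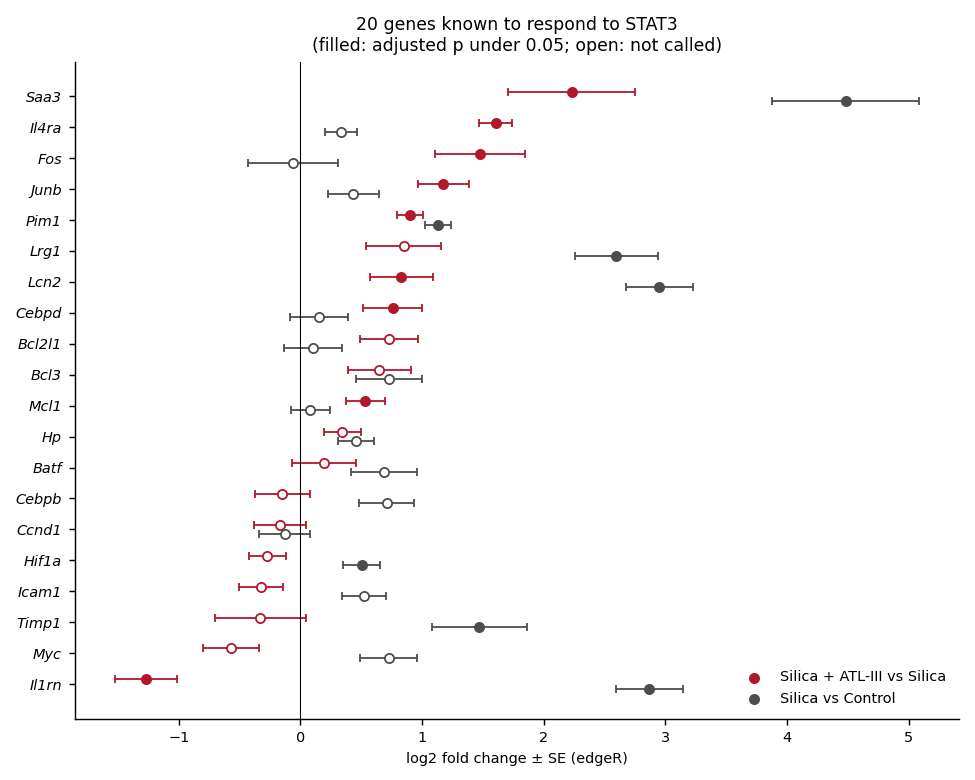
Log2 fold changes ± SE from edgeR (horizontal axis) of 20 genes known to respond to STAT3, comparing Silica + ATL-III with Silica and Silica with Control; filled points have an adjusted p under 0.05. Against Silica, 8 genes of Silica + ATL-III are filled on the right of 0 and Il1rn alone on the left, and in Silica against Control 7 are filled, all on the right.

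For the 4 members whose group means spanned at least 1 on a log2(CPM + 1) scale, the genes with the nearest profile over the 9 libraries were found among 12759 genes with a mean of at least 2 FPKM in their highest group. Likeness was the mean absolute difference between profiles, each centred on its own mean, and describes these libraries only. Nearest to Socs3 were Arg2 (0.151), Nfil3 (0.162) and Spi1 (0.198). Arg2, which encodes the mitochondrial arginase, stood at 49.6 ± 4.0 FPKM in Silica + ATL-III, 19.7 ± 1.87 FPKM in Silica and 12.7 ± 3.11 FPKM in Control. The genes closest to Osm were Pirb (0.209), Selplg (0.210) and Cd33 (0.232). Pirb, an inhibitory receptor gene of leukocytes, stood at 46.9 ± 3.05 FPKM in Silica + ATL-III, 11.4 ± 0.981 FPKM in Silica and 8.17 ± 4.14 FPKM in Control.

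Il6ra was closest to Tbx6 (0.108), Ptpru (0.135) and B4galt3 (0.136). B4galt3, a galactosyltransferase gene, stood at 9.91 ± 0.534 FPKM in Silica + ATL-III, 4.28 ± 0.441 FPKM in Silica and 6.66 ± 0.755 FPKM in Control. Il6 was nearest to Gyg (0.128), the glycogenin gene, at 32.1 ± 4.09 FPKM in Silica + ATL-III, 62.7 ± 7.75 FPKM in Silica and 33.1 ± 2.54 FPKM in Control. Slc9a4 (0.133) and Dio1 (0.136) came next to Il6. On this scale the low counts of Il6 compress its profile, so its neighbours include genes with smaller fold changes. Osmr, Il6st, Stat3, Socs1, Cish and Lif spanned less than 1 and were not matched.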

How the data were processed

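Lung tissue of 9 mouse libraries, 3 per group, was sequenced as poly(A) RNA. The authors deposited 1 table with whole-number read counts per gene and library, not normalized, and FPKM values, per the file headers. All deposited FPKM values (100%) came back within 0.006 when calculated again from counts, exonic length and library total. The submitters' processing notes list cutadapt 1.9.1, HISAT2 2.0.1, HTSeq 0.6.1 and mm10 but no roles. Start positions in the table matched GENCODE M21 for 2.88% of shared genes, so only chromosomes are printed from it. Columns were matched to samples by the group's letter (A for Silica + ATL-III, S for Silica, C for Control) and the replicate number in the titles.

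The counts were tested with edgeR 4.0.16 (R 4.3.3; TMM normalization, filterByExpr by group with a minimum count of 10, quasi-likelihood test) in 1 fit of 3 group means with 6 residual degrees of freedom. Each SE was derived as the absolute log2 fold change over the root of its F statistic. A filter on counts was used in place of an FPKM floor, which drops long genes and the low members Il6, Lif and Socs1. Alternatives used limma 3.58.1, DESeq2 1.42.0, other scalings and filters, and fits with single libraries left out. The script was tested on simulated counts. Replicate numbers were not taken to pair the samples in the main fit. Correlations between same-numbered libraries were at most 0.117, though in Silica against Control each was best with its own number. A fit with the replicate number as a block is given at the end. The members and gene lists were chosen with earlier results of these data known, and the named genes outside the members are those with the smallest p in each list and direction, of which 1 is not reported here. Promoter sequences are from RefSeq, and Osm had no entry there that matched.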

Additional observations from a re-analysis of the deposited data

How the results depend on the processing

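The member calls between Silica + ATL-III and Silica (Il6, Osm, Il6ra, Stat3 and Socs3) held in every alternative that tested them. An FPKM floor left 7 of the 10 members to test (Il6, Lif and Socs1 had no value), and called 2 members between Silica and Control. With 1 library left out, the members called between Silica and Control numbered 1 to 3, all genes called 865 to 4113 (4113 without Silica 2 and at most 1199 without any other, against 2610 with all), and other pathway genes 5 to 16. Between Silica + ATL-III and Silica, all genes called numbered 2027 (without Silica + ATL-III 2) to 4110 and pathway genes 10 to 16, and between Silica + ATL-III and Control, 1593 (without Control 3) to 2494 and 13 to 20. DESeq2 called 15 pathway genes between Silica and Control and the fit with no filter 18, against 8, and both limma fits called 14 between Silica + ATL-III and Control, against 23.

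Values near 0 changed sign without being called. Between Silica and Control, Il6st was -0.0213 with the FPKM floor, -0.120 with library totals alone, -0.118 and -0.115 with limma (pseudocounts 0.1 and 0.5), -0.00801 with no filter, and -0.0747 to 0.034 with 1 library left out. Lif was -0.0210, -0.0722 and -0.0392 with library totals and the same limma fits, and -0.0899 to 0.333 with 1 library left out. Stat3 was -0.0625, -0.0605 and -0.0585, and -0.0180 to 0.114. Between Silica + ATL-III and Control, Socs1 was -0.0134 and -0.00125 with limma, and -0.0903 to 0.373 with 1 library left out, and Cish was -0.185 to 0.00932, above 0 without Control 2. Between Silica and Control, the median gene moved by -0.124 with library totals alone and by -0.118 and -0.094 with the limma fits (pseudocounts 0.1 and 0.5). Between Silica + ATL-III and Control, it moved by -0.15 and -0.123 with the same limma fits. A cause of the changes of sign beyond these shifts was not tested.

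The replicate numbers correlated by 0.092 to 0.117 between Silica and Control and by -0.161 to -0.029 in the other comparisons, and in Silica vs Control each library correlated best with its own number, a hint from the data only. With the replicate number as a block, all genes called numbered 3000 for Silica + ATL-III against Silica, 2308 for Silica + ATL-III against Control and 2147 for Silica against Control. Under the block, Il6st was -0.00011 between Silica and Control, and Socs1 there (adjusted p = 0.070) and Osmr between Silica + ATL-III and Control (adjusted p = 0.064) were no longer called.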
